A study of Mus musculus with 3 samples.

Results

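The genes described here are 8 of the 31053 genes counted in this series. They are Pigr, the epithelial receptor that carries IgA into the gut lumen; Jchain, which joins IgA into dimers; the heavy chain constant genes Igha, Ighm and Ighd; and the light chain constant genes Igkc, Iglc1 and Iglc2. They were looked up by symbol, and all 8 were found in the files of each library. Single cells were profiled by RNA sequencing from the small intestine of wild-type (WT) C57BL/6N mice, male and 12 weeks of age, that received no treatment named in the sources used here. Cells of 3 mice were pooled, so that 1 library each stood for the duodenum, the jejunum and the ileum, and live cells were sorted from an epithelial preparation that also held immune cells of the epithelium. With 1 library per segment, differences between segments are given as values and were not tested.

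IgA is the main antibody of the gut surface. Plasma cells below the epithelium secrete it as a dimer held by the J chain, Pigr binds that dimer on the basal side of epithelial cells, and vesicles carry both to the lumen, where the outer part of Pigr is cut off and leaves with the antibody. Naive B cells carry IgM and IgD made from Ighm and Ighd on one transcript, class switching replaces them with another heavy chain, and each B cell uses either the kappa light chain (Igkc) or a lambda light chain (Iglc genes).

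Of 27235 barcodes, 16686 passed limits, set as in the published methods, on UMIs (single counted RNA molecules), genes and mitochondrial share, with 4255 duodenal, 4360 jejunal and 8071 ileal cells. The ileal library stood apart, with a median of 5536 UMIs and 11.1% mitochondrial UMIs per cell, against 12424 and 11737 UMIs and 27.1% and 27.2% in the other libraries. Between 4 and 12 cell barcodes were shared by each pair of libraries. Cells were clustered without any immunoglobulin gene and without Pigr and Jchain, and clusters were named by fixed markers as cells like 1 of 12 types. A name stands for cells like that type throughout. All markers were higher inside their class than outside it, except 1 of 9 for early enterocytes and 2 of 11 for dendritic cells. The names were given by these same markers, so this is a description and no independent check. The samples are labelled as epithelial cells, yet 1235 T cells, 605 B cells, 86 plasma cells, 66 macrophages or monocytes and 66 dendritic cells were found, and the ileum held 1092 of these T cells and 543 of these B cells but 17 of the plasma cells. A further 1422 cells stayed unnamed.

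On GRCm38, Pigr lies on the forward strand of chromosome 1 from 130826684 to 130852249 and has 11 exons, and Jchain lies on the reverse strand of chromosome 5 from 88519809 to 88527891 with 4 exons. Igkc is a single exon on the forward strand of chromosome 6 from 70726435 to 70726966. Igha (113254830 to 113260236), Ighd (113406604 to 113416324) and Ighm (113418558 to 113422730) lie on the reverse strand of chromosome 12. Iglc1 (19061618 to 19062071) and Iglc2 (19198396 to 19200351) lie on the reverse strand of chromosome 16, together with Iglc3 (19065230 to 19065681), which was not among the 8 genes but is counted with them below because it resembles Iglc2.

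The lambda genes are shown because UMIs of 1 can be split from those of another only where their letters differ. Over the coding part, Iglc1 was 74.8% identical to Iglc2 and differed at 79 of 313 aligned bases, whereas Iglc2 and Iglc3 were 96.5% identical and differed at 11 of 314. None of the 405 windows of 50 bases in Iglc1 was found in either other gene, but 43 of 409 windows of Iglc2 (10.5%) were found in Iglc3. Values of Iglc2 and Iglc3 are therefore uncertain against each other. The stretches below are read 5′ to 3′ on the coding strand, at chr16:19061962-19061991, chr16:19198743-19198772 and chr16:19065572-19065601 of GRCm38 (reverse strand), and capitals mark the 13 of 30 positions at which the 3 genes are not all alike.
Iglc1: tgtACgatCAcTGaTttCtAcccAGgtgTG
Iglc2: tgtCTgatTTcCAaCttTtCcccGAgtgGT
Iglc3: tgtCTgatTTcCAaTttTtCcccAAgtgGT

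For Pigr, whose level the results turn on most, 250 bases before the RefSeq start site (GRCm38.p6) were searched on both strands for an E-box bound by Usf factors (CACGTG), an interferon element core (AANNGAAA) and a TATA box (TATAAA). The E-box was found once, 71 bases before the start, and it was present in 6.02% of the 32851 promoters of the table. The other motifs, present in 21.3% and 12.4% of promoters, had no match in this window. A match is a description of letters only. The stretch lies at chr1:130826601-130826630 on the forward strand, with the E-box in capitals.
Pigr: atctgtggcagtCACGTGatctggctggct

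Pigr RNA was higher in early enterocytes than in enterocytes or ISC/proliferating cells of the same library, and its level went down from duodenum to ileum in each of these classes. A level is the number of UMIs of a gene in every 10000 UMIs summed over the cells of a class, each with a 95% Poisson interval (exact) for counting error alone. In enterocytes the level of Pigr was 21.2 (21.1 to 21.4) in duodenal, 7.82 (7.73 to 7.90) in jejunal and 1.95 (1.90 to 2.00) in ileal cells. Early enterocytes, named by villus-bottom genes such as Reg3b, held 31.2, 19.7 and 10.8 in the same order. ISC/proliferating cells of the crypt held 19.0, 13.0 and 9.85. ISC/proliferating cells thus stood above enterocytes in jejunum and ileum. In the ileum goblet cells (3.77), EECs (2.69) and Paneth cells (2.32) also stood above the enterocytes.

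Among secretory cells, goblet cells held Pigr at 7.50, 3.49 and 3.77 in duodenum, jejunum and ileum, EECs (hormone cells) at 6.67, 1.97 and 2.69, and tuft cells, which sense the lumen, at 4.11, 1.72 and 1.19. The intervals of goblet cells in the jejunum (3.23 to 3.77) and the ileum (3.60 to 3.94) overlapped. The 27 Paneth cells gave 6.18, 0.811 and 2.32 from 7, 6 and 14 cells. In cells that should lack Pigr the level was not 0. T cells held 6.46, 1.55 and 0.655, and plasma cells 2.37, 0.802 and 0.0704, also highest in the duodenum. Dendritic cells held the least of the other immune cells, 0.701, 0.185 and 0.166. Macrophages or monocytes held 8.03, 1.24 and 0.875, but a subcluster of 24 of these 66 cells was led by Dcn, a gene of fibroblasts, and the other subcluster, of 42, held Pigr at 1.24, 0.225 and 0.164.

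**Figure D1:**
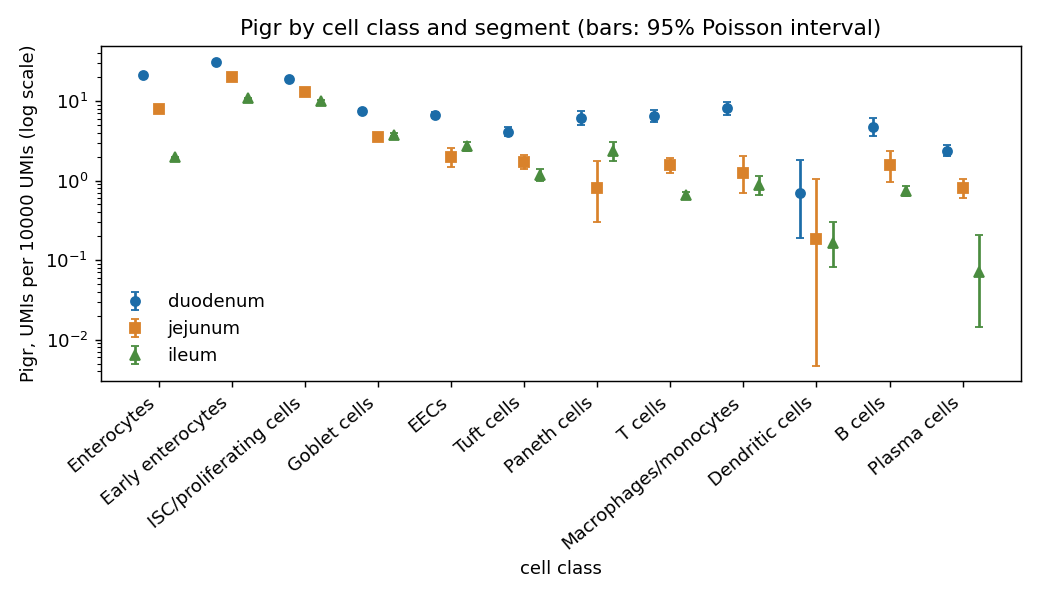
Pigr in UMIs per 10000 UMIs (log scale) for 12 cell classes, with 1 point for each library and bars for the 95% Poisson interval. Early enterocytes stand at 31.2, 19.7 and 10.8 in duodenum, jejunum and ileum, and T cells, which should lack the gene, at 6.46, 1.55 and 0.655.

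The same order was seen at equal depth. With each cell thinned to 800 UMIs, 63.8% of duodenal, 33.4% of jejunal and 14.1% of ileal enterocytes held a UMI of Pigr, against 22.9%, 6.48% and 3.21% of T cells. Without thinning, the shares were 94.7%, 81.9% and 43.7% of enterocytes, whose median depth was 12044, 12027 and 6337.5 UMIs. Of early enterocytes, 88.4%, 70.8% and 50.3% held a UMI of Pigr after thinning.

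RNA of enterocyte markers was found in every class, so its level stands beside that of Pigr. In duodenal T cells Pigr was at 30.5% of its level in enterocytes, and the 13 enterocyte markers had a median of 28.2% (16.3% to 41.3%). In duodenal tuft cells the values were 19.4% for Pigr and 16.3% for the markers. Goblet cells held Pigr at 35.4%, 44.7% and 193% of the enterocyte level from duodenum to ileum, above the marker medians of 12.0%, 11.2% and 6.85%. ISC/proliferating cells held it at 89.6%, 166% and 505% of that level, with marker medians of 11.8%, 8.28% and 7.60%. In EECs Pigr was at 31.5%, 25.3% and 138%, beside 17.4%, 12.7% and 11.3%. There it lay inside the range of the markers in duodenum and jejunum, whose highest were 54.0% and 127%. It was above the highest marker (108%) in the ileum. In ISC/proliferating cells Pigr was above the highest of the 13 markers in all 3 libraries. In goblet cells it was above the highest marker in jejunum (17.1%) and ileum (11.2%) but not in the duodenum (42.4%). In T cells it lay inside the range of the markers in the duodenum and above the highest in jejunum (15.2%) and ileum (16.6%). The part of free RNA in these levels was not tested.

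Enterocytes were not 1 level. Their cluster led by Slc2a2 held Pigr at 29.4, 15.6 and 4.22 in duodenum, jejunum and ileum, and their cluster led by Nt5e and Ada, enzymes of the villus tip, held it at 2.40, 1.59 and 0.358. A cluster led by the interferon-response gene Ifit1 held 23.6, 12.0 and 1.78. The clusters were filled unequally by the libraries, since 1005 of the 1641 cells of the Slc2a2 cluster were duodenal and 490 of the 515 cells of a cluster led by Sprr1a, which held Pigr at 0.450 in the ileum, were ileal. The unnamed cluster led by Gm26917, with Fgf15 and Fabp6 among its leading genes, held Pigr at 32.4, 26.2 and 11.9, and 651 of its 946 cells were ileal. Counted with the enterocytes, it changed their Pigr level to 21.4, 8.31 and 2.85, and goblet cells then stood at 132% and EECs at 94.3% of ileal enterocytes. The ileal level therefore depends on which cells are called enterocytes, and the order of the segments did not change with this choice.

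Each class was set against enterocytes with the quasi-likelihood test of edgeR on UMIs summed per library and class, over 13011 genes, with Benjamini-Hochberg adjustment and n = 3 libraries. In this fit, TMM factors scale the sums so that most genes do not differ; without them, the median log2 fold change of all genes rose by 0.30 for early enterocytes, 0.04 for goblet cells, 0.59 for tuft cells, 0.83 for EECs, 0.77 for ISC/proliferating cells and 0.85 for T cells. The share of called genes that were higher was 47.7% in early enterocytes (69.0% without TMM), 47.7% in tuft cells (72.7%), 50.7% in EECs (78.5%), 50.2% in ISC/proliferating cells (72.8%) and 48.3% in T cells (70.7%). A log2 fold change below is thus relative to the bulk of genes.

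Pigr was lower than in enterocytes in tuft cells, T cells and EECs. In tuft cells the log2 fold change was -2.51 (SE 0.476, edgeR adjusted p = 6.63e-05, lower in 3 of 3 libraries), where 44.3% of all genes were called and 23.2% were called lower. In T cells it was -2.88 (SE 0.482, edgeR adjusted p = 6.65e-06, lower in 3 of 3), where 60.4% of genes were called and 31.2% were lower. In EECs it was -1.96 (SE 0.469, edgeR adjusted p = 0.000776), where 52.2% of genes were called and 25.7% were lower, but the summed level was lower in 2 libraries and higher in the ileum. These calls held without TMM, at -1.85, -1.93 and -1.07. For EECs the edgeR adjusted p was 0.0793 without the jejunum and 0.0516 without the library block.

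Early enterocytes, goblet cells and ISC/proliferating cells did not pass the test for Pigr. The test had little power for small changes, since on simulated goblet cell sums it recovered 6.01% of genes changed by 1 on the log2 scale. For early enterocytes the log2 fold change was 1.02 (SE 0.447, edgeR adjusted p = 0.0734), higher in 3 of 3 libraries, where 37% of genes were called, 17.6% higher and 19.3% lower. Without TMM it was 1.39 and passed (edgeR adjusted p = 0.0140). For goblet cells it was -0.67 (SE 0.450, edgeR adjusted p = 0.268), where 36.5% of genes were called, 16.3% higher and 20.2% lower. It was -1.51 and passed without the ileum (edgeR adjusted p = 0.00209), the library in which goblet cells stood above enterocytes. For ISC/proliferating cells it was 0.10 (SE 0.446, edgeR adjusted p = 0.868), where 61.3% of genes were called, 30.8% higher and 30.5% lower. Without TMM this value was 0.96 (edgeR adjusted p = 0.0603).

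Pigr fell along a score of villus position. Enterocytes and early enterocytes of each library were placed in 5 ranges of near-equal cell number. The score was the share of villus-tip landmark UMIs (Ada, Nt5e, Slc28a2, Klf4, Krt20, Egfr and Apoa4) among tip and bottom landmarks. The bottom landmarks were Reg1, Reg3b, Reg3g, Lypd8, Nlrp6, Il18 and Dmbt1. None of these landmarks was 1 of the 8 genes, but Apoa4 was also a naming marker of enterocytes. All bottom landmarks were also naming markers of early enterocytes. The comparison of ranges thus overlaps that of early enterocytes with enterocytes. Over the ranges the tip share was 15.5%, 55.2%, 79.1%, 93.4% and 98.9% in the duodenum. It was 21.6%, 88.8%, 98.0%, 99.4% and 99.8% in the jejunum, and 2.82%, 46.5%, 86.3%, 95.7% and 98.8% in the ileum. A range is thus not the same position in each library. From range 1 to range 5, the duodenum held Pigr at 31.4, 29.1, 22.6, 15.5 and 6.92. The jejunum held 19.7, 12.4, 7.60, 3.53 and 1.51. The ileum held 9.20, 3.21, 1.46, 1.07 and 0.544. Each step was downward in each library, and range 1 of the ileum lay between the fourth and the fifth range of the duodenum. Between range 5 and range 1 the log2 fold change of Pigr was -2.92 (SE 0.327, edgeR adjusted p = 6.16e-06, lower in 3 of 3), where 67.9% of 11153 genes were called, 34.9% lower and 33% higher. It was -3.43 without TMM, which moved the median of all genes by -0.49 and the higher share of called genes from 48.6% to 27.4%. Without the library block it was -2.36 (edgeR adjusted p = 0.140).

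Other features moved with the ranges. Early enterocytes made up 53.3%, 38.3% and 46.1% of range 1 in duodenum, jejunum and ileum. This share follows in part from the score, since the bottom landmarks also named these cells. Median UMIs per cell fell from 18618 to 9208 in the duodenum, from 15037 to 12815 in the jejunum and from 12647.5 to 7479 in the ileum, and the mitochondrial share went from 23.6% to 28.4%, from 28.1% to 25.5% and from 16.6% to 8.81% in the same order. Their part in the fall was not tested. Igha, which epithelial cells do not make, had no such order, between 0.405 in the first range and 1.31 in the second of the duodenum. Its log2 fold change was -0.01 (SE 0.456, edgeR adjusted p = 0.992). However, 1 duodenal enterocyte held 914 Igha UMIs, and the duodenal ranges held 579, 1372, 493, 989 and 449 in all. That cell lay in the second range, and another cell rich in Igha, with 3310 Igkc UMIs, lay in the fourth. Without these 2 cells Igha in all duodenal enterocytes was at 0.526 in place of 0.879. The order of Igha over the ranges without them was not computed, so the uneven duodenal values cannot show whether Igha had an order. Of the other genes tested, Iglc1 passed at 1.03 (edgeR adjusted p = 0.00665) but not without TMM (0.51, edgeR adjusted p = 0.157), and its levels were at most 0.0776 in any jejunal range.

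**Figure D2:**
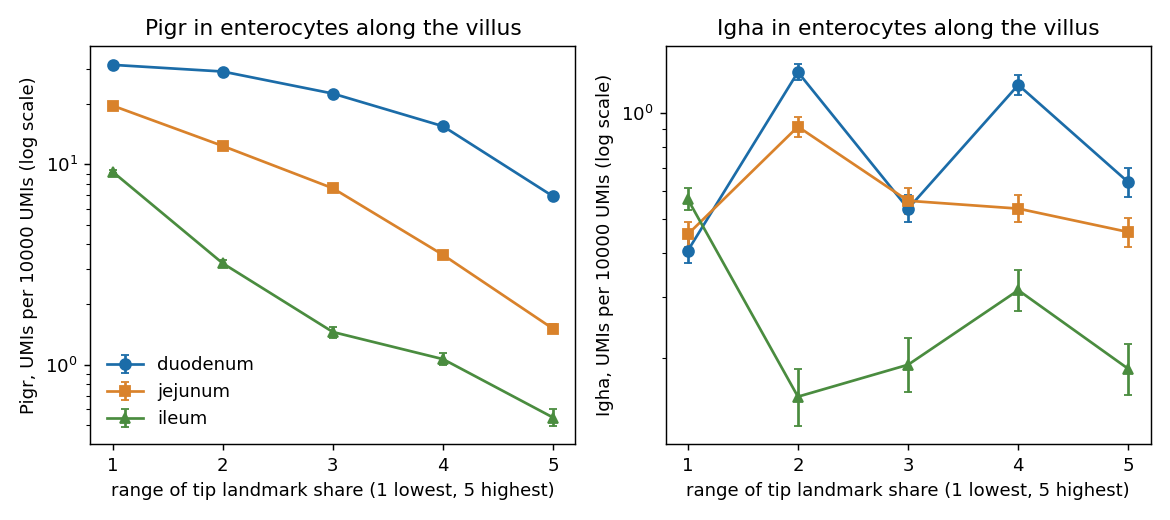
Pigr (left) and Igha (right) in UMIs per 10000 UMIs (log scale) over 5 ranges of the tip landmark share, with 1 line for each library and bars for the 95% Poisson interval. Pigr goes down at every step in each library, from 31.4 to 6.92 in the duodenum. Igha as drawn does not follow that order, but many of its duodenal UMIs came from 2 cells in ranges 2 and 4, 914 of them from 1 cell.

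Of 8 genes of IgA transcytosis, which carry Pigr through the cell, 3 passed upward and 1 downward from villus bottom to tip, where 33% of all genes passed upward and 34.9% downward. The median log2 fold change of the 8 was 0.15 against -0.03 over all genes. Without TMM 2 passed upward and 5 downward, with a median of -0.34 against -0.52, where 19.1% of all genes passed upward and 50.6% downward. The vesicle GTPases Rab5a (1.05, SE 0.125, edgeR adjusted p = 9.73e-06) and Rab11a (0.87, SE 0.115, edgeR adjusted p = 2.58e-05) rose in 3 of 3 libraries. Rab25, a GTPase of apical recycling vesicles, fell by 1.35 on the log2 scale (edgeR adjusted p = 5.30e-06). The third upward call, the retromer subunit Vps35 at 0.34, had a lower level at the tip in 3 of 3 libraries and turned to -0.15 without TMM. In early enterocytes Rab25 was higher by 1.39 than in enterocytes (edgeR adjusted p = 6.71e-06). In T cells all 8 were called lower, and 6 without TMM, where 31.2% and 18.8% of all genes were.

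Of 19 receptors and factors known to act upstream of Pigr, 14 passed upward and 1 downward from villus bottom to tip, with a median of 0.82, beside 33% and 34.9% of all genes. Without TMM 9 passed upward and 3 downward, with a median of 0.33, beside 19.1% and 50.6% of all genes. The NF-kappaB subunits Relb (1.70, edgeR adjusted p = 2.66e-07) and Nfkb1 (1.18, edgeR adjusted p = 1.29e-06), the TNF receptor Tnfrsf1a (1.95, edgeR adjusted p = 2.01e-06) and the IL-4 receptor chain Il4ra (1.53, edgeR adjusted p = 4.13e-06) were each higher at the tip in 3 of 3 libraries. Il17rc, a chain of the IL-17 receptor, fell by 0.55 on the log2 scale (edgeR adjusted p = 0.0411). Usf1, an E-box factor, passed at 0.42 although its level was higher at the tip in 1 of 3 libraries, and its value turned to -0.08 without TMM. Early enterocytes had 10 of the 19 genes lower than enterocytes, and 4 without TMM, where 19.3% and 11.2% of all genes were lower.

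Of 6 epithelial signals to B lineage cells tested along the villus, 2 passed upward and 3 downward, with and without TMM. Of all genes, 33% passed upward and 34.9% downward with TMM, and 19.1% and 50.6% without it. With 6 genes, these counts are a description and no result about the list. The B cell survival factor Tnfsf13b (2.94, SE 0.252, edgeR adjusted p = 7.34e-07) and the chemokine Cxcl16 (2.72, SE 0.231, edgeR adjusted p = 6.74e-07) rose toward the tip. Ccl25, the ligand of the gut homing receptor Ccr9, fell by 3.04 (edgeR adjusted p = 9.13e-09), and Ccl28, a ligand of the plasma cell receptor Ccr10, fell by 4.39 on the log2 scale (edgeR adjusted p = 0.000249). Ccl28 was low in enterocytes, at 0.0417, 0.0106 and 0.00642 UMIs per 10000 in duodenum, jejunum and ileum.

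Plasma cells were filled with the transcripts of IgA. Immunoglobulin genes and Jchain together made up 62.7% of the UMIs of the 86 plasma cells, with a lowest cell of 11.2%, a median cell of 64.2% and a highest cell of 86.6%. These cells were named by other genes, and their values are a description. Igkc stood at 3869, 3658 and 3967 UMIs per 10000 in duodenum, jejunum and ileum, Igha at 1579.8, 1662 and 1076, and Jchain at 608, 619.9 and 584. Over single cells, Jchain ranged from 71.9 to 994 with a median of 554 in duodenal cells, from 20.8 to 906 with a median of 622 in jejunal cells, and from 80.3 to 939 with a median of 527 in ileal cells. Jchain was thus found in all 86 cells.

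The level of Iglc1 rested on few cells. It stood at 11.4, 402 and 106 in plasma cells of duodenum, jejunum and ileum, and without the cell with most UMIs of it at 9.26, 193 and 17.3. Iglc2 stood at 31.9, 21.1 and 19.4, and at 26.8, 19.2 and 16.8 without its highest cell, and was found in 33 of 37, 31 of 32 and 17 of 17 cells. Ighm was at 0.885, 0.0786 and 41.98, and all 1788 ileal UMIs of it came from 1 cell. Ighd was found with 1 UMI in the 86 cells. The apparent jejunal excess of Iglc1 and the ileal excess of Ighm therefore rest on 2 lambda cells and 1 Ighm cell.

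**Figure D3:**
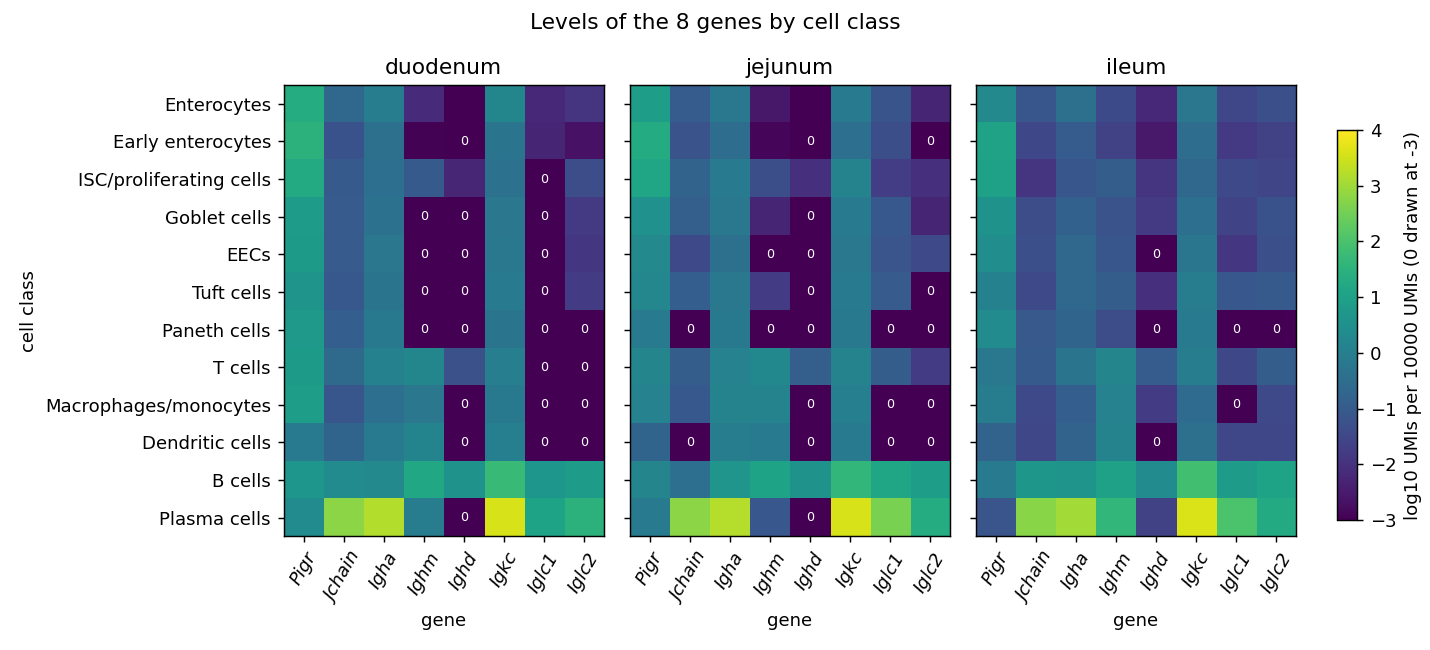
Levels of the 8 genes as log10 of UMIs per 10000 UMIs (color) by cell class (rows) in each library (panels), with cells of value 0 drawn at -3 and marked 0. Igkc, Igha and Jchain reach 3869, 1579.8 and 608 in duodenal plasma cells, while Pigr is spread over the epithelial rows.

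Each plasma cell used 1 heavy and 1 light chain by the rule applied, which asked for 90% of the UMIs of its kind. Igha was the heavy chain in 37 of 37 duodenal, 32 of 32 jejunal and 12 of 17 ileal cells (70.6%, exact binomial interval 44.0% to 89.7%). Of the other ileal cells, 1 used Ighm and 4 an Ighg gene, 2 of them mainly Ighg1 and 2 mainly Ighg2b. The kappa chain was used by 82 of 86 cells (95.3%, 88.5% to 98.7%) and a lambda chain by 4, of which 3 had mostly Iglc1 and 1, in the duodenum, Iglc2. No cell was mixed. These calls changed by at most 1 cell with a threshold of 80%, with a minimum of 100 UMIs, or after subtraction of background. Cells of 1 library came from pooled mice, so they are not replicates of a segment.

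Variable genes are poorly covered by 3′ counting, and few cells had enough UMIs of them. With at least 20 UMIs and 80% of them from 1 gene, a leading Igkv gene was called in 41 plasma cells, with 20 different genes, the most frequent being Igkv1-110, Igkv10-96 and Igkv17-127 with 5 cells each. A leading Ighv gene was called in 9 cells. The 8 cells with both held 8 different pairs. With a minimum of 10 UMIs, chosen like that of 5 after seeing the data, 23 cells held 21 pairs, and the pair of Ighv7-1 and Igkv10-96 was found in 3 cells, 2 of the duodenum and 1 of the jejunum. With a minimum of 5 UMIs, 37 cells held 30 pairs, and 5 pairs were found in more than 1 cell, in 12 cells in all. Of these 5 pairs, 4 were found in cells of 2 libraries. Descent of these cells from 1 clone was not tested.

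The genes that support secretion were abundant in plasma cells. Mzb1, a chaperone of antibody assembly, stood at 13.6, 20.9 and 23.6 UMIs per 10000 in duodenum, jejunum and ileum, the chaperone Hsp90b1 at 13.3, 17.8 and 16.6, the disulfide isomerase Txndc5 at 17.2, 17.5 and 12.5, and the chaperone Hspa5 at 9.72, 12.4 and 13.5. Mzb1 and Txndc5 were also among the naming markers. Of the homing and survival receptors, Ccr10 was at 1.56, 1.60 and 2.49. Tnfrsf17, the receptor for survival signals and also a naming marker, was at 1.53, 1.48 and 2.09. Tnfrsf13b, a related receptor, was at 1.42, 1.08 and 1.17.

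B cells held the transcripts of IgM and IgD. Ighm stood at 15.3, 11.4 and 9.97 in duodenum, jejunum and ileum and Ighd at 3.82, 3.70 and 2.31. Igkc was at 57.1, 43.9 and 75.7, of which the ileal value fell to 55.1 without the cell with most Igkc. Jchain was at 2.42, 0.370 and 5.12, and without its highest cell at 1.84 in the duodenum and 3.06 in the ileum, while all 5 jejunal UMIs came from 1 cell. Igha was at 1.95, 4.44 and 4.24, and the jejunal value was 2.60 without the highest cell. In each library Igkc was the highest of the 8 genes in B cells, far below its level in plasma cells.

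The 605 B cells fell into 2 clusters with different heavy chains. In the cluster of 518 cells led by Ebf1, Ighm was found in 437 cells, Ighd in 328 and both in 315, Igha in 107 and Jchain in 22. In the cluster of 87 cells led by Ms4a1, Jchain was found in 83 cells, an Ighg gene in 66, Igha in 64, Ighm in 13 and Ighd in 3. Jchain stood at 12.4 UMIs per 10000 in the second cluster and 0.129 in the first, and Ighm at 1.13 and 15.9. A single cell of the second cluster held 629 of its Jchain UMIs (40.5%), and a single cell 2896 of its Ighg2b UMIs (73.1%). The clusters were made without these genes but from the same cells, and 80 of the 87 cells were ileal, so no test was made.

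Light chains were less sharply split in B cells than in plasma cells. Among cells with at least 20 light chain UMIs, the cluster led by Ebf1 had 60 kappa, 10 lambda and 222 mixed cells of 292, and the cluster led by Ms4a1 had 20, 16 and 49 of 85. The median lambda share of light chain UMIs was 19.1% (quartiles 11.4% and 31.1%) and 16.2% (10.6% and 30.0%), against 0.977% in the 82 kappa plasma cells, where it ran from 0% to 4.27%. The source of the mixture in B cells was not tested.

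**Figure D4:**
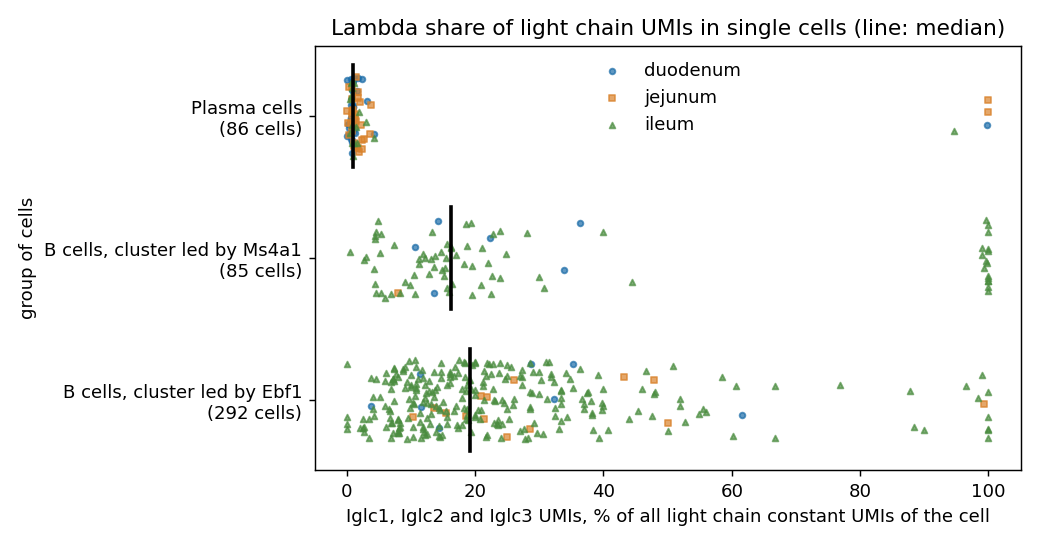
Share of lambda constant UMIs (Iglc1, Iglc2 and Iglc3) among all light chain constant UMIs, in percent, for single cells with at least 20 such UMIs, with color and shape for the library, random vertical spread and a line at the median. Plasma cells lie near 0% apart from 4 cells, and the medians of the B cell clusters are 19.1% and 16.2%.

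Outside the B lineage, Igha and Igkc served as a reference for free RNA. In enterocytes Igha was at 0.879, 0.627 and 0.391 and Igkc at 1.62, 0.713 and 0.584 in duodenum, jejunum and ileum. In T cells Igha was at 1.17, 1.28 and 0.490 and Igkc at 1.01, 1.34 and 0.945. These levels were uneven over cells, since 20 duodenal, 18 jejunal and 37 ileal enterocytes above 10 times the class level held 42.6%, 20.6% and 58.4% of the Igha UMIs of their class. The ratio of Igkc to Igha was 1.85, 1.14 and 1.49 in enterocytes, below the 2.45, 2.20 and 3.69 of plasma cells of the same library, and Jchain to Igha was 0.245, 0.171 and 0.188 against 0.385, 0.373 and 0.542. Without the cell with most UMIs of the gene, enterocytes held Igha at 0.651, 0.534 and 0.209, Igkc at 0.797, 0.670 and 0.495 and Jchain at 0.0970, 0.106 and 0.0657, so that the duodenal levels of Igkc and Jchain and the ileal level of Igha rest in large part on 1 cell each. Without the cells with most UMIs of any of the 3 genes, an alternative also chosen after seeing the data, Igkc to Igha was 1.39, 1.25 and 2.37 and Jchain to Igha 0.176, 0.198 and 0.315 in enterocytes, again below plasma cells of the same library. After thinning to 800 UMIs, Igha was found in 5.10%, 4.53% and 1.69% of enterocytes.

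Against enterocytes, Igkc and Igha were lower in early enterocytes, EECs and ISC/proliferating cells. Of all genes, 37%, 52.2% and 61.3% were called in these classes, and 19.3%, 25.7% and 30.5% were called lower. Median depth was 23079.5, 6176 and 18596 UMIs per cell in the same order, against 9827.5 in enterocytes. The part of depth in these levels was not tested. In early enterocytes Igkc changed by -1.61 (SE 0.480, edgeR adjusted p = 0.00862) and Igha by -1.63 (SE 0.487, edgeR adjusted p = 0.00864), and Jchain (-1.65, edgeR adjusted p = 0.0255) and Iglc2 (-1.63, edgeR adjusted p = 0.0368) also passed, each lower in 3 of 3 libraries. Igha turned to 0.027 (edgeR adjusted p = 0.989) when cells were clustered without integration. Jchain and Iglc2 did not pass without TMM. In EECs Igkc (-1.46, edgeR adjusted p = 0.0158) and Igha (-1.49, edgeR adjusted p = 0.0175) passed, and in ISC/proliferating cells Igkc (-1.41, edgeR adjusted p = 0.0144) and Igha (-1.81, edgeR adjusted p = 0.00288), but none of these 4 did without TMM. The summed levels were lower in 3 of 3 libraries for EECs and in 2 of 3 for ISC/proliferating cells. Without cells above 10 times the class level, enterocytes of duodenum, jejunum and ileum held Igha at 0.506, 0.498 and 0.163. EECs then held it at 0.548, 0.279 and 0.156. Igkc was then at 0.722, 0.642 and 0.444 in enterocytes and 0.633, 0.647 and 0.417 in EECs. In early enterocytes Igha was then at 0.348, 0.311 and 0.0747 and Igkc at 0.486, 0.349 and 0.239. In ISC/proliferating cells Igha was then at 0.351, 0.511 and 0.0516 and Igkc at 0.387, 0.756 and 0.211. The calls of Igha and Igkc were lost in 7 and 5 of 19 alternatives in EECs and in 2 and 3 in ISC/proliferating cells. Goblet cells (Igkc -0.84, edgeR adjusted p = 0.179, and Igha -0.83, edgeR adjusted p = 0.193) and tuft cells (Igkc -0.73, edgeR adjusted p = 0.241, and Igha -1.16, edgeR adjusted p = 0.0655) did not pass.

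Ighm was found in cells that were not of the B lineage. T cells held Ighm at 1.64, 1.88 and 1.51 in duodenum, jejunum and ileum, macrophages or monocytes at 0.589, 1.32 and 1.26, dendritic cells at 1.40, 0.740 and 1.36, and enterocytes at 0.00674, 0.00276 and 0.0367. In T cells a UMI of Ighm was found in 16 of 35, 46 of 108 and 377 of 1092 cells, and in 11.4%, 12.0% and 8.88% after thinning, against 0.0313%, 0.0604% and 0.245% of enterocytes. The log2 fold change of Ighm in T cells against enterocytes was 6.72 (SE 1.02, edgeR adjusted p = 1.53e-06) and that of Ighd was 4.33 (SE 0.593, edgeR adjusted p = 5.00e-07), both higher in 3 of 3 libraries, where 29.2% of genes were called higher. Ighd levels were small, at 0.0530, 0.134 and 0.106. Igkc, Igha, Jchain, Iglc1 and Iglc2 were not called in T cells, and of these Iglc2 passed without TMM (1.67, edgeR adjusted p = 0.0204).

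The markers of B cells were low beside Ighm in T cells. The 12 B cell markers summed to 0.212, 0.555 and 1.01 UMIs per 10000 in T cells of duodenum, jejunum and ileum, against 78.7, 66.8 and 71.9 in B cells. In duodenal T cells, and in jejunal ones, 10 of the 12 markers were at 0, Cd79a and Ms4a1 among them, and in the ileum none was. The ratio of Ighm to Cd79a was 9.62 in ileal T cells and 0.5003 in ileal B cells, and the ratio of Ighm to Igkc was 1.63, 1.40 and 1.59 in T cells and 0.267, 0.260 and 0.132 in B cells. The 992 of 1235 T cells without a UMI of any B cell marker held Ighm at 1.47, and 346 of them had a UMI of it. Ighm in T cells was thus about as high in cells without B cell markers as in all T cells, at 1.55. With 0.940 marker UMIs per 10000 and a median of 4263 UMIs per cell, most T cells held no marker UMI. Choosing such cells cannot show the source of this Ighm, which was not tested.

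**Figure D5:**
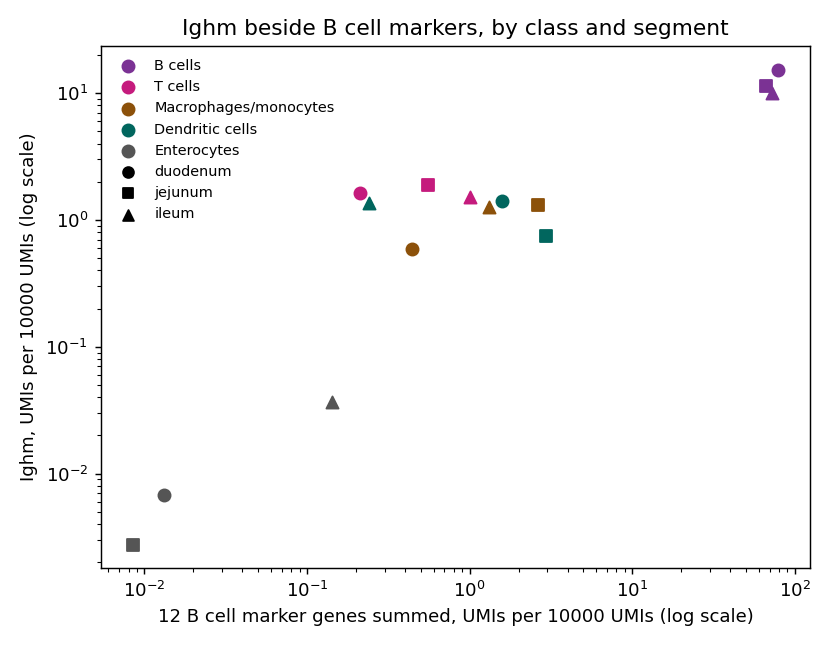
Ighm against the sum of 12 B cell markers, both in UMIs per 10000 UMIs (log scales), with 1 point for each class (color) and library (shape). T cells lie at 1.64, 1.88 and 1.51 of Ighm with 0.212, 0.555 and 1.01 of B cell markers, and B cells at 15.3, 11.4 and 9.97 with 78.7, 66.8 and 71.9.

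The genes most like each pattern were ranked by Pearson's r of log2(UMIs per 10000 + 0.1), as a description over sums that share libraries and depth. Over 19 sums of epithelial classes, Pigr was most like Aadac (r = 0.93), Aldh18a1 (0.92), Acaa2 (0.92), Glo1 (0.91) and Txn1 (0.91). Over 33 sums of all classes, Igha was most like Iglv1 (0.97), Iglv3 (0.97), Derl3 (0.96), Prg2 (0.96) and Igkv10-96 (0.95). Derl3 was also a plasma cell naming marker. Over the same sums Ighd was most like Cxcr5, Cr2 and Fcer2a (0.98 each), Blk (0.98) and Pax5 (0.98), of which Cr2, Fcer2a, Blk and Pax5 were also B cell naming markers.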

How the data were processed

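RNA was measured in 3 libraries (10x 3′ v3), 1 per segment. The authors counted UMIs per gene and barcode with Cell Ranger 3.0.2 on GRCm38 (mm10), and the deposited values are raw UMI counts of called cells. The members and lists were chosen with earlier results of these data known.

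Kept cells had 800–50000 UMIs, 200–6000 genes and a mitochondrial share of 40% or less. Seurat 5.3.0 (R 4.3.3) integrated libraries over 2000 variable genes and 30 components (resolution 0.8), leaving out 394 immunoglobulin genes and members; mixed clusters were split at 0.5. A cluster took the best marker list, or stayed unnamed with fewer than 3 markers found in 10% of cells, more markers of another list among its top 10 genes, none of its own there (except enterocytes; this part of the rule was chosen after clusters were seen) or few UMIs.

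Sums per library and class (at least 10 cells) were tested with edgeR 4.0.16 (quasi-likelihood test with the library as a block, TMM factors, genes kept by filterByExpr, Benjamini-Hochberg threshold 0.05). Cells were not replicates, and mice were pooled. With the library as a block, p-values measure how differences between classes or ranges vary from 1 segment's library to another. The spread of a gene was estimated over all classes, or all 5 ranges, of a fit together and not from the 2 groups compared alone. These p-values do not measure the spread between animals. On simulated goblet cell sums, the test recovered 6.01% of genes changed by 1 on the log2 scale and 80.6% of those changed by 2. On simulated villus ranges, it recovered 59.5% and 90.7%. Intervals are exact, at 95%. Levels used Python 3.11.15, numpy 2.4.6, pandas 2.3.3 and scipy 1.17.1. Sequences were aligned with Biopython 1.88, and 2 entries of the RefSeq promoter table matched symbols of the 8 genes. Scrublet (scanpy 1.11.5) called 0, 0 and 146 doublets, so it did not work in duodenum and jejunum, and the top 5% of doublet scores were left out as an alternative. Alternatives also covered scaling, DESeq2 1.42.0, gene and cell filters, clustering, denominators and libraries. Positions are from GENCODE M21. The 8 members are always named; from each list at most 4 genes are named, by level or adjusted p, and the 5 most like Pigr, Igha and Ighd. Vps35, Usf1, Gm26917, Fgf15, Fabp6, Slc2a2, Sprr1a, Ifit1, Dcn, Siglech and the other genes that lead a cluster were named after values were seen. A result on 1 listed gene is not reported here.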

Additional observations from a re-analysis of the deposited data

Results flagged for a closer look

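Pigr in goblet cells, EECs and ISC/proliferating cells was noted because its place beside enterocytes turned between segments, with 1 library each, so that the difference between segments was not tested. Goblet cells held Pigr at 35.4% and 44.7% of the enterocyte level in duodenum and jejunum and at 193% in the ileum. EECs held 31.5%, 25.3% and 138%, and ISC/proliferating cells 89.6%, 166% and 505%, in the same order. With the unnamed cluster led by Gm26917 counted with the enterocytes, the ileal values were 132%, 94.3% and 346%.

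Barcodes under 800 UMIs, which entered no comparison, held Igha far above the level of enterocytes in each library. Igha stood at 182 UMIs per 10000 in 46 duodenal, 91.9 in 33 jejunal and 14.9 in 151 ileal barcodes, against 0.879, 0.627 and 0.391 in enterocytes.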

How the results depend on the processing

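With 1 pooled library per segment, no value rests on replicate animals. Calls for Pigr in tuft and T cells and for Ighm and Ighd in T cells held under all 19 alternatives run. The fit paired the classes of a segment through the library block. Without the library block, Pigr changed by -2.28 in EECs (edgeR adjusted p = 0.0516), by -0.35 in ISC/proliferating cells and by -2.36 along the villus (edgeR adjusted p = 0.140). Pigr in early enterocytes passed at 1.39 without TMM, 0.99 without the filter on low genes, 1.16 with only the 2 classes compared and 0.98 with sums of at least 30 cells. In ISC/proliferating cells it turned to -0.034 with the Gm26917 cluster counted as enterocytes, an alternative chosen after seeing the data, and to -0.0040 without integration, where Igha in early enterocytes turned to 0.027. The cause was not tested. Leaving out 1 library gave Pigr -2.70 to -1.46 in EECs (not called without the jejunum), 0.61 to 1.35 in early enterocytes (called without the duodenum), -1.51 to -0.24 in goblet cells (called without the ileum) and -0.47 to 0.50 in ISC/proliferating cells (below 0 without the ileum).

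The Pigr level of duodenal, jejunal and ileal enterocytes was 29.2, 10.7 and 2.26 without mitochondrial UMIs in the total, 18.3, 6.92 and 1.71 at no more than 20% mitochondrial UMIs, 15.8, 3.85 and 0 as the median of single cells, 21.5, 7.97 and 2.07 at resolution 1.2, and 21.6, 7.997 and 2.96 without integration. With the members among the variable genes it was 21.5 and 7.91 in duodenum and jejunum, and without the top 5% of doublet scores 7.93 in the jejunum. The order of the segments was the same in each. The count of genes called fell from 4808 to 2624 in early enterocytes and from 4749 to 3025 in goblet cells without the jejunum, and from 7570 to 4529 along the villus without the library block.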

Other observations

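The 82 kappa plasma cells held 4689 UMIs of lambda variable (Iglv) genes, which is 70.4 for every 100 UMIs of their lambda constant genes, against 1.32 in the 4 lambda plasma cells. This was seen in each library, at 72.1, 71.1 and 66.9 in the kappa plasma cells of duodenum, jejunum and ileum. B cells of the cluster led by Ebf1 held 0.507 and those of the cluster led by Ms4a1 held 1.67. The source of these UMIs was not tested.

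An unnamed cluster of 26 cells, led by Siglech, a gene of plasmacytoid dendritic cells, held Ighm at 8.56, Igkc at 4.46 and Iglc3 at 9.38 UMIs per 10000.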
